A study of Homo sapiens with 4 samples.

Results

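The G1 cyclins and their kinases, CCND1, CCND2, CCND3, CCNE1, CCNE2, CDK2, CDK4 and CDK6, were followed in A549 cells, a line from a human lung adenocarcinoma, after infection with a control or an FCN3 virus. The 8 genes were taken by symbol from a table of 25192 genes, and 7 of them were among the 14099 genes with enough counts to be tested. CCND2 did not reach that level. The 2 control libraries came from cells given the empty virus (EV), a retrovirus that carries GFP alone, and the 2 FCN3 libraries from cells given the same vector with the V5-tagged FCN3 coding sequence. RNA was taken 48 h after infection in all 4 libraries, so every library carries a virus and cells without one were not analysed here. No source used here says that the replicates were separate cultures, so p-values measure the spread between these libraries, which may be technical. The fits pool this spread in part over genes.

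Passage from G1 into S phase is driven by a pair of cyclin-kinase modules. D-type cyclins, whose genes respond to mitogens, bind CDK4 or CDK6 and start the phosphorylation of the retinoblastoma protein. E-type cyclins, whose genes are E2F targets, bind CDK2 and complete it, which frees E2F factors to switch on genes of DNA synthesis. INK4 proteins such as p16, the product of CDKN2A, block CDK4 and CDK6, and p21, the product of CDKN1A, binds and inhibits CDK2. In unfolded protein stress, cyclin D1 protein is known to be lost through reduced translation, a step that RNA levels do not show. In A549 cells with the FCN3 virus, however, the study reported more cyclin D1 protein by immunoblot, at a later time than these libraries. At that later time it also reported G1 arrest by flow cytometry, with more p53 and p21 protein and less cyclin B1 and CDC25C.

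Libraries held between 16353554 and 35733735 expected counts, with replicate 1 the deeper library in both groups. FCN3, the gene carried by the virus, had 1 and 0 expected counts in the EV libraries against 722388 and 448352 in the FCN3 libraries. The keratin genes KRT8 and KRT18, which mark epithelial cells, were high throughout, and the 7 epithelial markers summed to between 3637 and 5265 TPM (a level per transcript length and per library). Most of that sum came from KRT8 and KRT18. KRT19 was at most 97.9 TPM, CDH1 9.53, EPCAM 3.65, CLDN4 3.59 and MUC1 2.35 TPM in any library, beside 8.12 TPM for the fibroblast marker COL1A1. Of 5 leukocyte markers, 4 were at or under 3 counts in every library, as were 2 of 4 endothelial and 3 of 6 fibroblast markers, and no library exceeded 8.67 summed TPM for any of these lists. The summed epithelial and fibroblast markers were higher in replicate 2 than in replicate 1 of both groups, and their part in the results was not tested. A549 is known to lack CDKN2A and CDKN2B through a homozygous deletion, and here CDKN2A had 4, 2, 2 and 0 counts and CDKN2B 0, 0, 1 and 1 (EV replicates 1 and 2, then FCN3 replicates 1 and 2, the order used for all 4-value lists here).

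Sequences before the start sites are shown for members whose entry in the RefSeq promoter table held a searched motif, since start sites are where cyclin gene activators such as E2F, Sp1 and MYC bind. CCND3, CCNE1, CDK4 and CDK6 had an entry, and CCND1, CCND2, CCNE2 and CDK2 did not. The CDK6 stretch held none of the motifs searched and is not printed. Each 250-base stretch before a start matched GRCh37 once on its chromosome. Capitals mark a CCAAT word on the reverse strand in CCND3, GC boxes (GGGGCGGGG on either strand) in CCNE1 and E-boxes (CACGTG, the same on both strands) in CDK4. The CCND3 stretch (chr6:41906944-41907193, minus strand) lies inside the gene as GENCODE annotates it, as do the stretches of CDK4 and CDK6. Each of these thus precedes a start that is not the outermost of that annotation. Which starts A549 cells use was not examined. The CCNE1 stretch is chr19:30302648-30302897 (plus strand). For CDK4 the first 113 bases are given (chr12:58146231-58146343, minus strand), which end where an annotated exon begins.
CCND3: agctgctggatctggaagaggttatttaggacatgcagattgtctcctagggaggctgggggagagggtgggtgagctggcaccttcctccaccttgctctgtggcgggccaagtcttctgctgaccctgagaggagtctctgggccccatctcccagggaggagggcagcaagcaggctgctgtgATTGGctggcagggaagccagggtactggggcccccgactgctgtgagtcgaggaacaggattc
CCNE1: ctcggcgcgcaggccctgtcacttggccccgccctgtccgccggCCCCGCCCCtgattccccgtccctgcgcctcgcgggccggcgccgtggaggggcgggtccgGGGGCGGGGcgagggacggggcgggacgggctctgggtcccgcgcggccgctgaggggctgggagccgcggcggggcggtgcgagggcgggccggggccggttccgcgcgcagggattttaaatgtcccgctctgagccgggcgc
CDK4: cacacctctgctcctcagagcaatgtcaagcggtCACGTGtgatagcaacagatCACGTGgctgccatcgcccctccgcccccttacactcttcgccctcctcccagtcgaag

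The E2F words TTTCCCGC, TTTCGCGC, TTTGGCGC and TTTGCCGC were searched on both strands. None of the 4 stretches held them, against 2.75% of 27305 stretches of the same length that did. Only these exact words were searched, so an E2F site of another sequence, in CCNE1 or elsewhere, would be missed. The CDK4 stretch held 3 E-boxes, 2 of them in the bases shown, and an E-box was found in 6.28% of all stretches. CCNE1 held 2 GC boxes (14.8% of all stretches), and the single CCAAT word of CCND3 was a motif of 32.7% of them. The cAMP response words TGACGTCA (1.73% of all stretches) and TAACGTCA (0.322%), the ATF4 word TGATGNAA (3.34%), the ER stress element ERSE (0.0842%) and the cell cycle word TTTGAA (13.9%) were in none of the 4. No marked words overlapped. These matches describe letters in a window and not bound sites.

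In levels per length, CDK4 led the members in EV cells at 280 ± 28.0 TPM (SD, n = 2 here and for each mean below). It was followed by CCND1 at 205 ± 12.03, CCND3 at 148 ± 24.2, CDK2 at 71.1 ± 2.82, CCNE1 at 36.4 ± 4.64, CDK6 at 26.2 ± 6.64 and CCNE2 at 10.5 ± 1.53 TPM. CCND2 was last at 0 and 0.02 TPM. No neighbours in this order overlapped between the EV libraries. With the FCN3 virus the order was the same, but CDK4 (226 ± 16.01 TPM) and CCND1 (211 ± 8.33 TPM) then overlapped. The ratio of CDK4 to CDK6 in TPM lay between 9.70 and 12.1 in the 4 libraries.

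**Figure D1:**
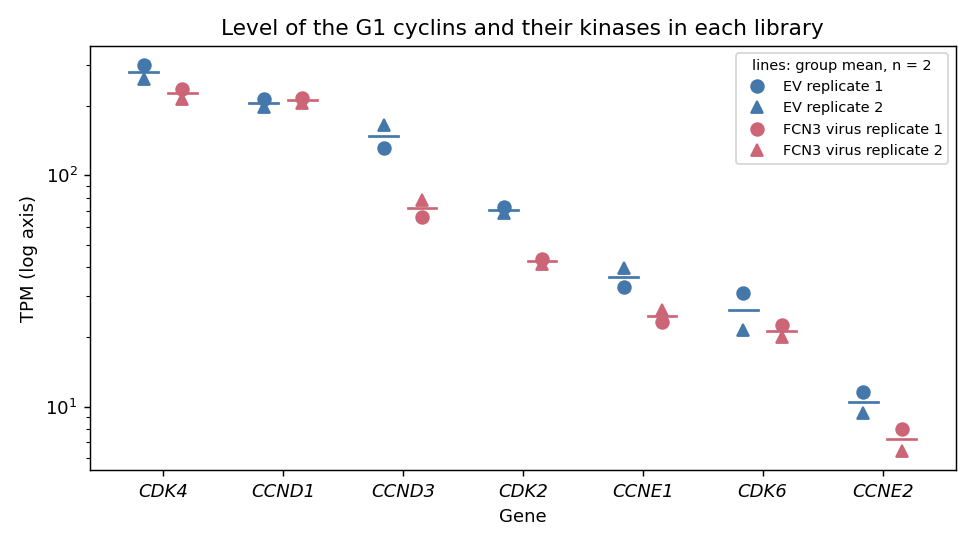
TPM (log axis) of the 7 tested members in each library, with circles for replicate 1, triangles for replicate 2 and lines for the mean of 2 libraries; CCND2, at most 0.10 TPM, is left out. CCND3 and CDK2 show the widest gap between the groups, and in CCND3 and CCNE1 replicate 2 is above replicate 1 in both groups.

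Expression was then compared between FCN3-virus-transduced and EV cells. CCND3 and CDK2 were the members furthest from their EV level, at 0.521 and 0.640 times that level. CCNE1, CCNE2, CDK4 and CDK6 were lower by less, and CCND1, the D-type cyclin with the highest level, was 1.10 times its EV level. By edgeR's quasi-likelihood test with an FDR threshold of 0.01, 0 of the 7 tested members were called, beside 0.965% of all tested genes (0.738% higher and 0.227% lower). An unadjusted p under 0.05 was found for 3 members (CCND3, CDK2 and CCNE1), all lower, beside 25.1% of all tested genes (13.6% higher and 11.6% lower). With the threshold at 0.05, CCND3 and CDK2 passed, beside 7.19% of all tested genes (4.43% higher and 2.77% lower). DESeq2, the tool of the study's methods, called CCND3 and CDK2 with the threshold at 0.01, beside 7.91% of the genes it tested (4.45% higher and 3.47% lower). With the replicate number as a block, which compares same-numbered libraries, edgeR called 6 members, all of them lower, beside 36.2% of all tested genes (19.1% higher and 17.1% lower). DESeq2 with the block called 3, CCND3, CDK2 and CCNE1, all lower, beside 15.8% of the genes it tested (7.93% higher and 7.91% lower). Same-numbered libraries deviated together, with a Pearson's r of 0.806 between the replicate differences of the groups over 8310 genes. What a replicate number stands for is not stated in the labels, so the 2 fits are given side by side. With the block, 4 libraries leave little to estimate the spread of each gene. The small p-values of that edgeR fit therefore rest largely on a spread pooled over all tested genes.

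**Figure D2:**
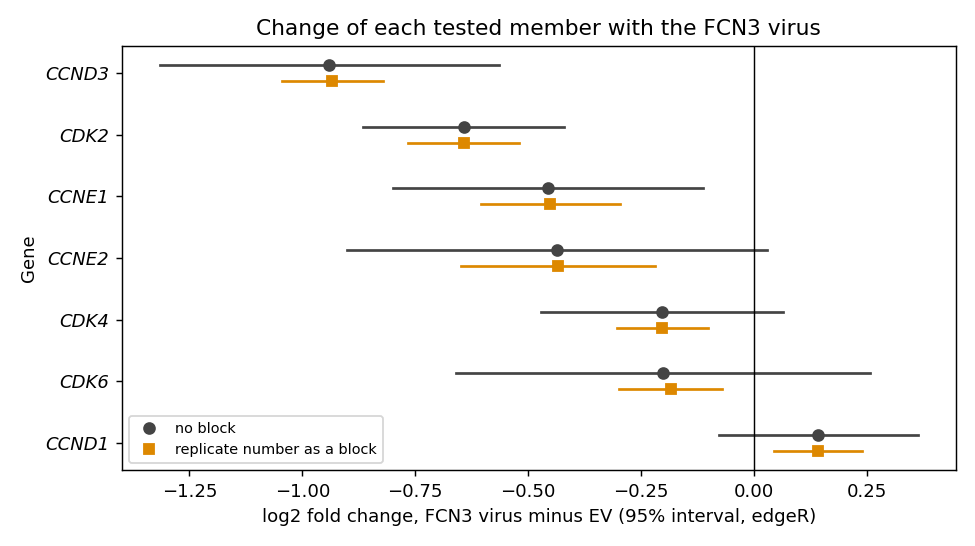
log2 fold change of each tested member, FCN3 virus minus EV, with 95% intervals from edgeR without the block (circles) and with it (squares). Estimates of the fits lie close together, and intervals are narrower with the block: CCNE2, CDK4, CDK6 and CCND1 cross 0 without the block and do not with it.

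Among the D-type cyclins, CCND3 was lower, CCND1 was near its EV level and CCND2 was hardly detected, and the difference between these genes was not tested. CCND3 encodes cyclin D3, a partner of CDK4 and CDK6. On GRCh37 the gene spans chromosome 6 from 41902672 to 42018095 (minus strand). Its level was 131 and 165 TPM in EV replicates 1 and 2 against 65.8 and 78.2 TPM in FCN3 replicates 1 and 2. Both FCN3 libraries were thus far below both EV libraries, and replicate 2 was the higher library in each group. The log2 fold change was -0.94 (standard error 0.15, 95% interval -1.32 to -0.56, adjusted p = 0.0278 from edgeR, and 3.3e-20 with the block). The replicate 1 pair gave -0.88 and the replicate 2 pair -0.99. Without EV replicate 1 the value was -1.10 with an adjusted p of 0.00784 from edgeR, the only omission of a library that placed a member under 0.01.

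CCND1 encodes cyclin D1, a main mitogen-responsive partner of CDK4 (chromosome 11 of GRCh37, 69455924 to 69469242, plus strand). In CPM, counts scaled to library size by TMM and with no length correction, it was at 481 and 447 in EV cells and at 531 and 494 with the FCN3 virus. The groups did not overlap on this scale, with the FCN3 libraries higher. In TPM, however, the values were 214 and 197 against 217 and 205, and the groups overlapped. The length of its 1 transcript was 4289 bases in every library. Over all tested genes the median log2 fold change was -0.07 from TPM (pseudocount of 1), against 0.02 from edgeR. For CCND1 these values were 0.04 from TPM and 0.14 from edgeR (standard error 0.09, 95% interval -0.08 to 0.36, adjusted p = 0.381 from edgeR). CCND1 shares 497 exonic bases with LTO1 on the other strand. The 2 same-numbered pairs gave 0.14 each, and with the block the adjusted p was 0.0128, over the threshold of 0.01. An increase of CCND1 beyond 0.36 or a decrease beyond 0.08 on the log2 scale lay outside the interval without the block.

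CCND2, the gene of cyclin D2, was near the limit of detection. EV cells gave 0 and 1 counts and FCN3 cells 13 and 7, from 52087289 and 55167633 counts in all. The summed counts of the libraries stand in a ratio of 18.9 after allowing for depth (95% exact interval 3.02 to 783, for counting error only, comparing these libraries and not the conditions). A transcript at 3 counts would be between 0.0840 and 0.183 CPM in these libraries. Tested without a filter on low counts, CCND2 had an adjusted p of 0.106 from edgeR, and DESeq2 gave it no adjusted p. On GRCh37 it lies on chromosome 12 from 4378937 to 4414519, where a protein-coding gene model on the same strand shares 999 exonic bases with it and an antisense gene, CCND2-AS1, shares 162. The few counts of CCND2 are therefore uncertain as to their gene.

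Summed over the family, D-type cyclin transcripts were at 345 and 362 TPM in EV cells and at 283 and 283 TPM with the FCN3 virus. On the TPM scale the median over all tested genes was also lower with the FCN3 virus (log2 fold change -0.07, pseudocount of 1). The share of CCND1 in this sum was 62.0% and 54.4% in EV cells and 76.7% and 72.4% with the FCN3 virus. The share of CCND3 was 38.0% and 45.6% against 23.2% and 27.6%. The groups did not overlap in either share. The ratio of CCND1 to CCND3 was 1.63 and 1.19 in EV cells and 3.30 and 2.63 with the FCN3 virus. With 2 libraries against 2, the smallest two-sided p of an exact permutation test is 0.333, so the shares and sums are given without a test. CCND2 held at most 0.0354% of the sum in any library.

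**Figure D3:**
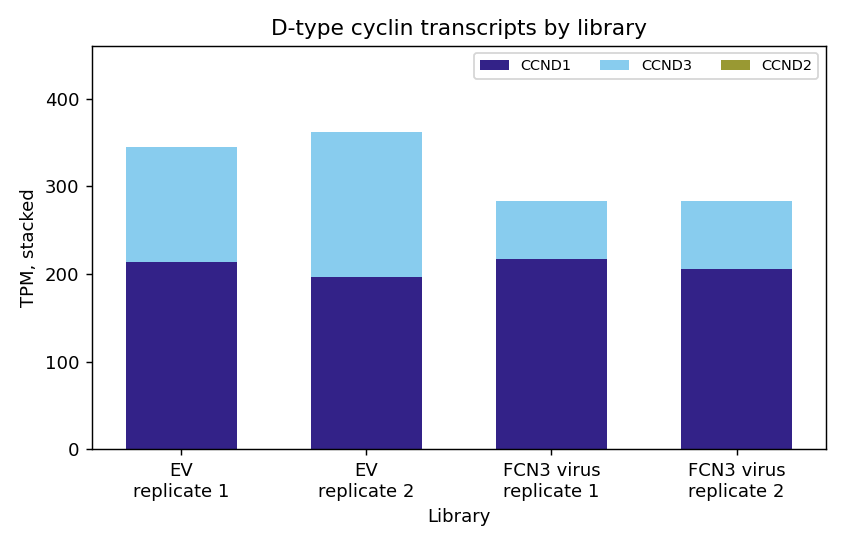
TPM of the 3 D-type cyclin genes stacked by library, with the axis starting at 0; CCND2 is too low to be seen. The CCND1 part lies between 197 and 217 TPM in all 4 libraries, while the CCND3 part runs from 131 and 165 TPM in EV cells to 65.8 and 78.2 TPM with the FCN3 virus.

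The E-type cyclins were lower to a like extent. CCNE1 encodes cyclin E1, which activates CDK2 at the end of G1 (chromosome 19 of GRCh37, 30302898 to 30315219, plus strand). It was at 33.1 and 39.6 TPM in EV cells and at 23.2 and 26.1 TPM with the FCN3 virus. The groups did not overlap. Its log2 fold change was -0.46 (standard error 0.14, 95% interval -0.80 to -0.11, adjusted p = 0.116 from edgeR, and 2.5e-06 with the block). CCNE2 encodes cyclin E2, a second partner of CDK2, and lies on chromosome 8 (95891998 to 95908906, minus strand). It was at 11.6 and 9.42 TPM in EV cells and at 8.0 and 6.43 TPM with the FCN3 virus, again without overlap. Its log2 fold change was -0.44 (standard error 0.19, 95% interval -0.90 to 0.03, adjusted p = 0.222 from edgeR, and 6.5e-04 with the block). CCNE1 made up 74.0% and 80.8% of the summed E-type cyclin TPM in EV cells and 74.3% and 80.2% with the FCN3 virus. This balance followed the replicate number and overlapped between the groups. CCNE2 shares 1629 exonic bases with INTS8 on the other strand, a gene with 2549 counts against 589 for CCNE2 in EV replicate 1, and the strand setting of the counting is not given in the sources used here, so the value of CCNE2 is uncertain.

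Among the kinases, CDK2 was furthest from its EV level. CDK2 encodes the kinase of the E-type and A-type cyclins (chromosome 12 of GRCh37, 56360565 to 56366573, plus strand). It was at 73.1 and 69.1 TPM in EV cells and at 43.4 and 41.5 TPM with the FCN3 virus. Replicates lay close together in each group and the groups were far apart. The log2 fold change was -0.64 (standard error 0.09, 95% interval -0.87 to -0.42, adjusted p = 0.0202 from edgeR, and 6.5e-13 with the block). It was -0.63 and -0.65 in the 2 same-numbered pairs. On the other strand a long non-coding gene, not analysed here, shares 565 exonic bases with CDK2, and PMEL shares 89. PMEL was at 40, 15, 22 and 13 counts, against 3060, 1341, 1838 and 1012 for CDK2.

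CDK4 and CDK6 encode the kinases of the D-type cyclins. CDK4 (chromosome 12, 58141510 to 58149796, minus strand) was at 300 and 260 TPM in EV cells and at 237 and 215 TPM with the FCN3 virus. Both FCN3 libraries lay below both EV libraries, by little, and in CPM the values were 300 and 262 against 258 and 230. The log2 fold change of CDK4 was -0.20 (standard error 0.11, 95% interval -0.47 to 0.06, adjusted p = 0.310 from edgeR, and 7.0e-04 with the block). From TPM (pseudocount of 1) it was -0.30, on a scale where the median over all tested genes was also lower with the FCN3 virus (-0.07). The TPM values of the other members are on that scale as well. CDK4 shares 1369 exonic bases with TSPAN31 on the other strand, which had 489, 175, 632 and 314 counts against 10920, 4391, 8759 and 4573 for CDK4.

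CDK6 (chromosome 7, 92234235 to 92465887, minus strand) was at 30.9 and 21.5 TPM in EV cells and at 22.5 and 19.9 TPM with the FCN3 virus. The groups overlapped, since EV replicate 2 lay below FCN3 replicate 1. Its log2 fold change was -0.20 (standard error 0.18, 95% interval -0.66 to 0.26, adjusted p = 0.552 from edgeR, and 0.00663 with the block). The replicate 1 libraries differed by -0.34 and the replicate 2 libraries by -0.02. Without EV replicate 1 the value was 0.090 in the fit without the block, which then set EV replicate 2 against both FCN3 libraries. With all 4 libraries and the block it was -0.18, and CDK6 differed between replicate numbers as well. CDK4 took 90.7% and 92.4% of the summed CDK4 and CDK6 TPM in EV cells and 91.3% and 91.5% with the FCN3 virus, and these shares overlapped.

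In 5 of the 7 tested members both FCN3 libraries were below both EV libraries in CPM, in CCND1 both were above, and CDK6 overlapped. Groups without overlap were found in 54.5% of all tested genes (28.0% higher and 26.5% lower). The median log2 fold change over the 7 members was -0.44, beside 0.02 over all tested genes. In bulk RNA, a lower level in each cell and a smaller share of cells in the phase that expresses the gene cannot be told apart.

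**Figure D4:**
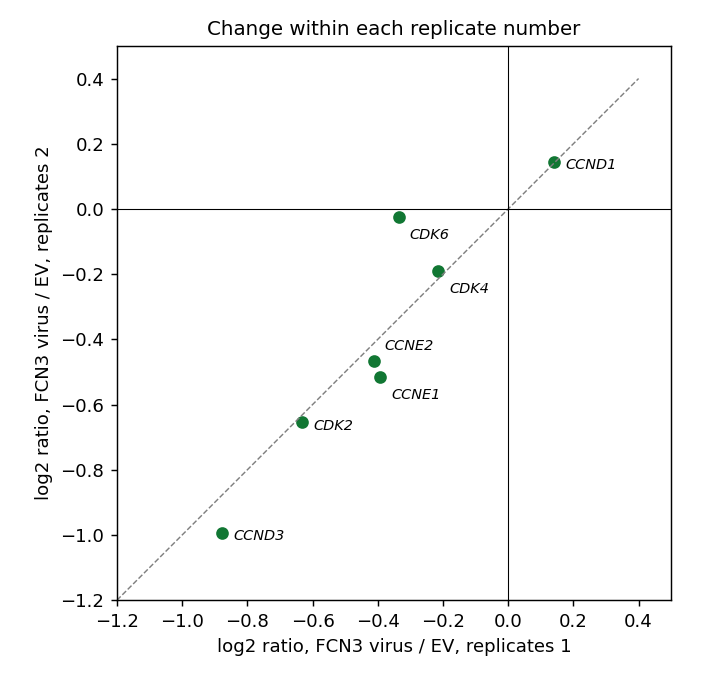
log2 ratio of CPM, FCN3 virus over EV, between the replicate 1 libraries (x axis) and between the replicate 2 libraries (y axis), 1 point per tested member, with a dashed line of equal values. 6 members lie near the line, from CCND3 (-0.88 and -0.99) to CCND1 (0.14 in both), and CDK6 lies above it (-0.34 and -0.02).

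Members also differed between replicate numbers. With the condition in the model, CDK6 (log2 difference, replicate 2 minus 1, -0.36), CCND3 (0.29) and CDK4 (-0.18) were called by edgeR (FDR under 0.01), beside 22.2% of all tested genes (11.7% higher and 10.5% lower in replicate 2). Their adjusted p was 2.1e-06, 4.3e-05 and 0.00418 from edgeR. CCND3 was higher in replicate 2 and both kinases were higher in replicate 1, in either group. CDK2 differed least between replicates (-0.08, adjusted p = 0.336 from edgeR).

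The other genes of the pathway were taken as 7 lists, described by their counts. Together the lists held 89 genes, of which 85 were tested, 0 rose, 3 fell and 82 were not called, with a median log2 fold change of -0.06. With the block 20 rose and 31 fell. The shares over all tested genes were 0.965% without the block and 36.2% with it (19.1% higher and 17.1% lower). They stand beside the counts of each list below as well. The 3 called genes were E2F8 and MYBL2, both transcription factors of proliferating cells, and MCM5, a subunit of the replicative helicase.

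Among 10 inhibitors and pocket proteins, 7 were tested and 0 were called (median -0.16), against 1 higher and 2 lower with the block. CDKN1A was at 173, 190, 318 and 307 CPM, a log2 value of 0.78 (SE 0.09, adjusted p = 0.0122 from edgeR, and 1.8e-18 with the block). CDKN2C, whose product p18 inhibits CDK4 and CDK6, was at 21.7, 18.4, 7.52 and 5.98 CPM, a log2 value of -1.56 (SE 0.18, adjusted p = 0.0129 from edgeR, and 1.1e-17 with the block). These inhibitors thus lay on opposite sides of their EV levels, neither passing the threshold without the block. The value of RB1, the gene of the retinoblastoma protein itself, was -0.15 (adjusted p = 0.457 from edgeR), a gene singled out after its value was seen.

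All 10 E2F and DP factors were tested, and only E2F8, a repressor of E2F targets, was called without the block (5 were lower with it, median -0.12). E2F8 fell by 1.61 on the log2 scale, from 25.7 ± 0.728 to 8.35 ± 0.996 CPM (adjusted p = 0.00736 from edgeR). Of the activator genes, named after their values were seen, E2F2 had -1.51 (adjusted p = 0.01004 from edgeR, and 9.0e-16 with the block), E2F1 -0.77 (0.0171, and 4.4e-14 with the block) and E2F3 -0.05 (0.813, and 0.605 with the block). Of 18 G1/S targets of E2F other than the E-type cyclins, 17 were lower and CDC6, named after its value was seen, was higher (0.35, adjusted p = 0.129 from edgeR, and 1.7e-07 with the block), with a median of -0.76. Over all tested genes, 6783 of 14099 were lower. MYBL2 (-0.97, adjusted p = 0.00530 from edgeR) and MCM5 (-0.87, adjusted p = 0.00802) fell, and with the block 17 fell and CDC6 rose. CCNE1 and CCNE2, at -0.46 and -0.44, were thus nearer to 0 than the median of the other genes of their list, a difference that was not tested.

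The 7 activators and adaptors of the G1 kinases had a median of -0.02, with 0 called (1 higher and 2 lower with the block). CKS2, a small CDK-binding protein, had -0.66 (adjusted p = 0.0381 from edgeR, and 5.1e-15 with the block), and CDC25A, the phosphatase that activates CDK2, -0.55 (0.0694, and 2.9e-07 with the block). Of 11 genes of cyclin and inhibitor turnover, 0 were called without the block, and 4 were higher and 2 lower with it (median 0.07). USP2, a deubiquitinase of cyclin D1, had 1.80 (adjusted p = 0.0623 from edgeR, and 5.7e-06 with the block) from counts of 15, 15, 69 and 39. FBXO4, an F-box protein tied to cyclin D1 turnover, had 0.88 (adjusted p = 0.0312 from edgeR, and 7.8e-10 with the block).

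Of 12 mitogen and transcription inputs to the D-type cyclin genes, 0 were called (median 0.14), and 5 were higher and 1 lower with the block. EGR1, an immediate early factor, had 1.72 (adjusted p = 0.0375 from edgeR, and 2.0e-08 with the block), and ETS1, a factor downstream of Ras signalling, 1.18 (0.0132, and 5.8e-25 with the block). MYC, an E-box factor named after its value was seen, was at 185, 203, 259 and 260 CPM (0.42, adjusted p = 0.0474 from edgeR, and 9.7e-10 with the block). Among the other cyclins and CDKs, 22 of 23 were tested and 0 were called (median 0.11), against 8 higher and 4 lower with the block. CCNG2, a cyclin tied to growth arrest, had 1.61 (adjusted p = 0.0181 from edgeR, and 9.6e-11 with the block), and CCNA2, the S phase cyclin that also binds CDK2, -0.95 (0.0264, and 2.0e-19 with the block). The rest of those lower with the block, named after their values were seen, were CDK1 (-0.79, adjusted p = 0.0316 from edgeR without the block), CCNB1 (-0.75, 0.0206) and CCNB2 (-0.72, 0.0137).

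**Figure D5:**
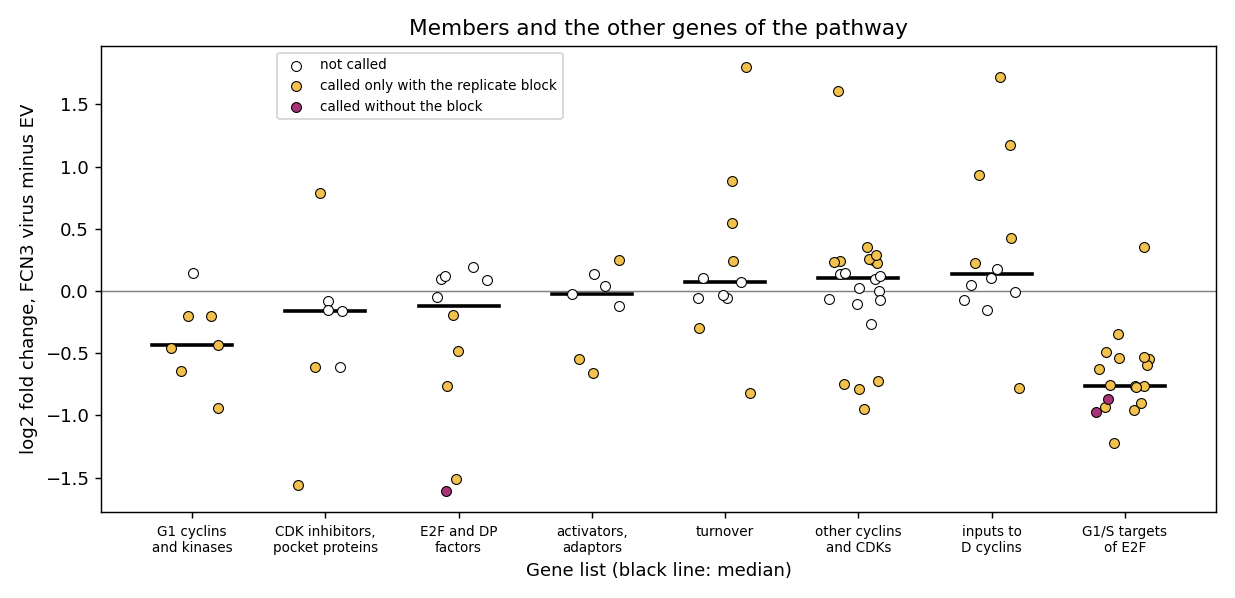
log2 fold change, FCN3 virus minus EV, of each tested member (left) and of each tested gene of the 7 pathway lists, with horizontal spread for legibility, a black line at each median and colours for edgeR calls at an FDR of 0.01 without the block, only with it, or in neither fit. The members' median is -0.44 and that of the G1/S targets of E2F is -0.76, while the medians of the other lists run from -0.16 to 0.14.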

How the data were processed

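RNA-seq of 4 A549 libraries was used, 2 per group, grouped and numbered by their titles. Per the labels, the study's methods and the submitters' processing notes, reads of stranded mRNA libraries were trimmed, aligned to hg19 with STAR 2.6.1d and quantified with RSEM. The authors deposited expected counts, which are estimated and not normalized. The authors also deposited TPM, scaled by RSEM to transcript length and depth, FPKM, which no step used, and other columns that hold the abundance-weighted transcript length.

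Expected counts were rounded and tested in R 4.3.3 with edgeR 4.0.16 (TMM, filterByExpr, quasi-likelihood fit), with Benjamini-Hochberg adjustment over 14099 genes and an FDR threshold of 0.01. Standard errors were obtained as log2 fold change over the root of F, and intervals (95%) use the total degrees of freedom of that test. These add to the residual degrees of freedom of a gene those gained by pooling over genes. DESeq2 1.42.0, limma 3.58.1 (voom, and TPM with pseudocounts of 1 and 0.1), other filters and normalizations, the replicate block and omitted libraries were alternatives. The edgeR test was tested on simulated data.

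Same-numbered libraries deviated together: over 8310 genes (average log2 CPM above 4) the replicate differences of the EV and FCN3 groups had a Pearson's r of 0.806 (genes are not independent replicates). The labels give the numbers but not their meaning, and there are only 2 pairs.

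Depth was 16353554 to 35733735 counts, and the exact interval of CCND2 and the floors (3 counts) cover counting error only. Gene positions are from GENCODE on GRCh37, the same assembly as hg19, and promoter sequences from RefSeq (table build GRCh38.p14), placed on GRCh37 by exact match. Transcript accessions in the files are RefSeq's. Named are all members, FCN3, called list genes (up to 4 a list), or else the 2 of largest change, and for each member the 2 genes of nearest profile, of which 1 is not reported here. RB1, E2F1, E2F2, E2F3, MYC, CDC6, CDK1, CCNB1 and CCNB2 lie outside this rule and were named after their values were seen. Members and lists were chosen with earlier results of these data known.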

Additional observations from a re-analysis of the deposited data

How the results depend on the processing

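Of 91 member log2 fold changes refitted with other settings, 80 stayed on their side of the threshold, 11 passed it (with the block or in DESeq2) and 0 reversed. With a library left out, 26 of 28 stayed on their side, CCND3 passed without EV replicate 1 and CDK6, between -0.44 and 0.090, reversed to 0.090 without it. The number of members called went from 0 to 6 with the replicate block in edgeR, 2 in DESeq2, 3 in DESeq2 with the block and 2 at an FDR of 0.05, and lay between 0 and 1 with libraries left out. List genes called went from 3 to 51, 31, 37 and 29 in these 4 settings, to 1 where the log2 change also had to reach 1 in size, and lay between 0 and 17 with libraries left out. Over all tested genes, 136 calls became 5103, 1046, 2209 and 1014, and lay between 92 and 267 with libraries left out. Higher genes were 104 of the 136 calls, 588 of the 1046 in DESeq2 and 2690 of the 5103 with the block. 17 list genes and 267 genes in all were called without EV replicate 2, and 0 list genes without FCN3 replicate 1. The pairing by replicate number could not be checked against its source. Where omission left a group with 1 library, it was taken to vary like the other group. The cause of these differences was not tested.

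Shares of members computed from counts in place of TPM, which gives long transcripts more weight, put CCND1 at 75.3% and 86.5% of the D-type cyclins (EV and FCN3 means, against 58.2% and 74.6% from TPM), CDK4 at 63.3% and 63.0% of CDK4 and CDK6, and CCNE1 at 70.5% and 70.3% of the E-type cyclins. CCND2 is limited by depth, with at most 13 counts in a library, and 2 libraries a group limit the rest.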

Other observations

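The transcript mix of the members, as RSEM's abundance-weighted length gives it, hardly varied. CCND3, with 4 transcripts in the table, had 2043, 2045, 2039 and 2048 bases. CDK2, with 2 transcripts, had 2274, 2275, 2275 and 2268 bases, and CDK6, also with 2, had 11654, 11631, 11643 and 11632 bases. The groups overlapped in all 3 genes, and the other members have 1 transcript in the table.

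Genes with the profile most like each member were sought among 8304 genes by the distance between mean-centred log2 CPM values over the 4 libraries. They were YKT6 and GOLPH3 for CCND1 (distances 0.0037 and 0.0072), FGFR4 for CCND3 (0.11), C19orf47 and ERGIC1 for CCNE1 (0.024 and 0.029), and MMS22L and HPRT1 for CCNE2 (0.0095 and 0.048). For the kinases they were PMEPA1 and CENPI for CDK2 (0.044 and 0.046), NUDCD2 and SDHD for CDK4 (0.0065 and 0.015), and VRK1 and SMCHD1 for CDK6 (0.048 and 0.067). With 4 libraries and this many genes, small distances are a description of these libraries, and FGFR4, the nearest to CCND3, was further off than the nearest gene of any other member.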
